A study of Homo sapiens with 9 samples.

Results

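Homologous recombination, the Fanconi pathway and end joining are the routes by which cells rejoin broken or crosslinked DNA. The RNA of 51 genes of these routes was measured in A549 lung cancer cells depleted of Cyclin K, among 21048 genes tested. The genes were taken from a list of 52 names, and a gene was a member when its symbol stood in the symbol column of the deposited tables. NHEJ1 was not analysed here. Of the 51 genes, 50 had a mean FPKM (fragments scaled to gene length and library depth) of at least 1 over the 9 libraries, and RAD51B had 0.411 ± 0.0358 (SD, n = 3) in scrambled cells.

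Homologous recombination copies the missing sequence from a sister chromatid. The ends are trimmed to single strands, mediator proteins load a recombinase filament on them, and helicases and nucleases later take the joined molecules apart. The Fanconi pathway marks crosslinked DNA by attaching ubiquitin to FANCD2 and FANCI, whereas end joining ligates the ends directly. Cyclin K is the partner of CDK12 and CDK13, kinases that phosphorylate RNA polymerase II during elongation, and CDK12 is known for sustaining the transcription of long genes and of DNA repair genes.

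A549 is an established line from a human lung adenocarcinoma. The cells were transfected for 48 h with a scrambled siRNA or with 1 of 2 siRNAs against Cyclin K (siCyclin K#1 and siCyclin K#2), all in the unmodified line and with no other agent named in the labels. Each group held 3 samples, treated here as independent, with an estimated 31333749 to 33767961 reads per library. CCNK, which encodes Cyclin K, had an FPKM of 7.02 ± 0.106 in scrambled cells, 0.809 ± 0.0857 under siCyclin K#1 and 0.844 ± 0.0661 under siCyclin K#2 (SD, n = 3 each). Cyclin K RNA was thus reduced and not absent. CDK12 RNA rose with both siRNAs, by 1.31 and 1.21 on the log2 scale (limma, adjusted p = 2.82e-06 and 8.34e-06). Of the markers of the line, ALDH1A1 and KRT18 had 549.9 ± 20.4 and 83.2 ± 2.15 FPKM in scrambled cells, and EPCAM was near 0 at 0.0408. These markers moved in both directions. Of 6 tested, 3 were higher and 2 lower under siCyclin K#1, and 3 and 1 under siCyclin K#2 (limma, adjusted p under 0.05). The shares of all genes tested were 26.8% and 18.1%, and 19.8% and 15.2%. ALDH1A1 had log2 fold changes of 0.59 and 0.74, and KRT18 -0.17 and 0.12. Leukocyte PTPRC, endothelial PECAM1, VWF and CDH5, and fibroblast COL1A2 and COL3A1 did not exceed 0.05 FPKM in any library, and CD14 had 0.909 ± 0.0413 in scrambled cells. The fibroblast list summed to 1.81, 2.23 and 2.13 FPKM in the scrambled libraries, 13.8, 14.8 and 13.8 under siCyclin K#1 and 3.31, 3.20 and 3.12 under siCyclin K#2, nearly all of it from COL1A1. DCN, also of that list, was scarce, at 0.0223 ± 0.00778 FPKM in scrambled cells, 0.0791 ± 0.0119 under siCyclin K#1 and 0.0144 ± 0.0038 under siCyclin K#2 (SD, n = 3 each). In RNA from a whole culture, fewer cells in a cycle phase and less RNA per cell cannot be told apart.

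The repair genes moved in both directions, and more of them were lower under siCyclin K#1 than under siCyclin K#2. A member was called when limma on log2(FPKM + 0.1), fitted over all genes tested, gave an adjusted p under 0.05. With siCyclin K#1, 11 of 51 were higher and 25 lower, and the median log2 fold change was -0.28 against 0.10 for all genes tested. With siCyclin K#2, 11 were higher and 12 lower, and the median was -0.03 against 0.01. Of all genes tested, 26.8% were called higher and 18.1% lower under siCyclin K#1, and 19.8% and 15.2% under siCyclin K#2. An average FPKM of 1 or more was reached by 50 of 51 members and by 11243 of 21048 genes tested. When the 11243 genes averaging an FPKM of 1 or more were fitted alone, 37.8% were called higher and 28.9% lower under siCyclin K#1, where 11 and 25 of the 50 members were called. With siCyclin K#2 these shares were 32.9% and 24.3%, beside 13 and 15 of 50 members. The direct test between the siRNAs called 8 members higher and 23 lower under siCyclin K#1, where 17.1% and 12.3% of all genes were called. Among the genes averaging an FPKM of 1 or more, 26.1% and 22.7% were called, beside 8 and 23 of 50 members. Scaling by median ratios moved the median of all genes under siCyclin K#1 from 0.10 to 0.00. It gave 10 members higher and 32 lower under siCyclin K#1, where 22.2% and 22.1% of all genes were called. Under siCyclin K#2 it gave 10 and 17 (17.8% and 17.2% of all genes), and quantile normalization gave 8 and 17 (17.5% and 17.4%).

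**Figure D1:**
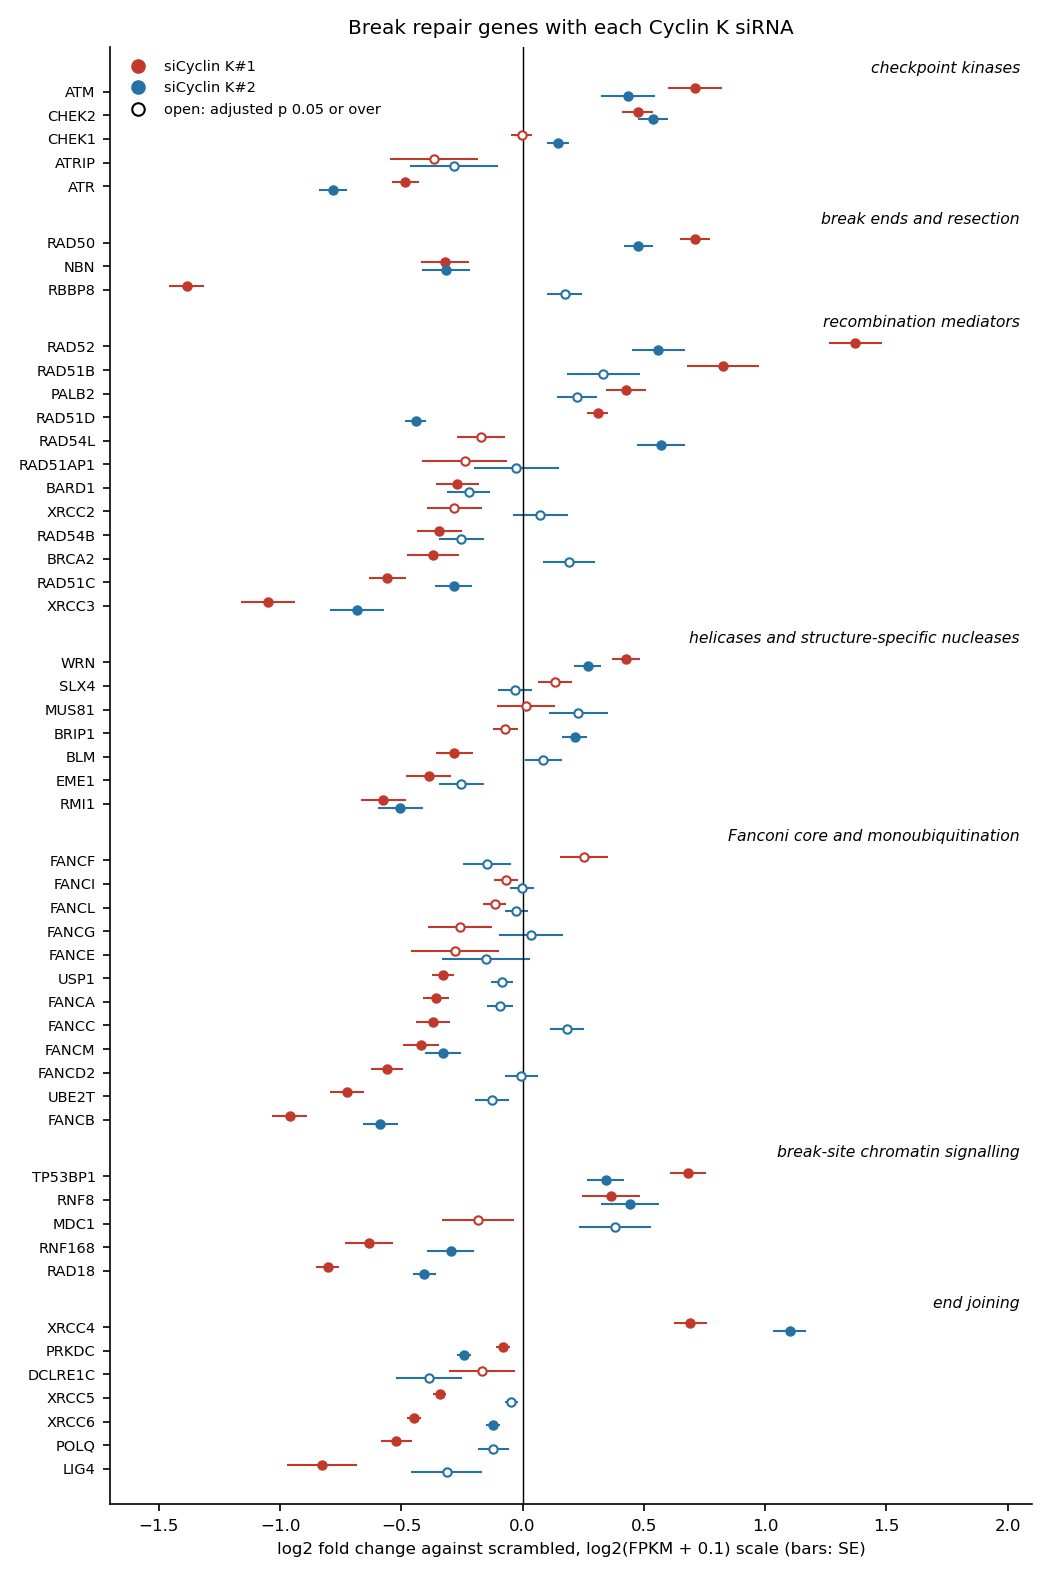
Log2 fold change against scrambled cells (x axis, with SE bars, n = 3 libraries a group) for each of 51 repair genes, grouped by role. Red points are siCyclin K#1 and blue points siCyclin K#2, and filled points have an adjusted p under 0.05; RBBP8 lies at -1.38 under siCyclin K#1 and at 0.17 under siCyclin K#2.

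Taken as 1 group, the 6 siCyclin K libraries differed from the 3 scrambled ones in 20 members. 9 were higher and 11 lower, where 17.0% and 11.5% of all genes were called in these directions. Among the genes averaging an FPKM of 1 or more, 27.3% were called higher and 18.9% lower, beside 9 and 14 of 50 members, so that 23 of 50 members were called where 46.2% of these genes were. Median-ratio scaling gave 7 and 15 (14.6% and 14.1% of all genes), quantile normalization 8 and 15 (14.6% and 14.3%). Without scrambled replicate 2, 11 of 51 members and 20.2% of all genes were called. In 10 members all 6 siCyclin K libraries lay above all 3 scrambled ones, and in 18 they lay below, against 18.9% and 13.7% of all genes. By the threshold of the methods, more than 3-fold at a p under 0.01 before adjustment, no member was called with both siRNAs, with either alone or between them, whereas 2.29%, 4.67%, 1.94% and 1.53% of all genes were, in that order. At an unadjusted p under 0.05 with no fold threshold, limma gave 29, 39, 31 and 35 members, where 39.0%, 50.6%, 43.0% and 38.4% of all genes passed.

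Both siRNA comparisons use the same scrambled libraries, so their calls are given side by side. Called higher with each siRNA were ATM, CHEK2, RAD50, RAD52, WRN, TP53BP1, RNF8 and XRCC4. Called lower with each were ATR, NBN, RAD51C, XRCC3, RMI1, FANCB, FANCM, RNF168, RAD18, XRCC6 and PRKDC. A set of 14 was called lower under siCyclin K#1 and not called under siCyclin K#2, namely RBBP8, BRCA2, BARD1, RAD54B, BLM, EME1, FANCA, FANCC, UBE2T, FANCD2, USP1, XRCC5, LIG4 and POLQ. In 11 of these 14 the direct test between the siRNAs was passed, and BARD1, RAD54B and EME1 did not pass it. The 14 were picked by calls from these same libraries, so this count is no separate evidence. RAD51D alone was higher under siCyclin K#1 and lower under siCyclin K#2. PALB2 and RAD51B were called higher under siCyclin K#1 and not under siCyclin K#2, and CHEK1, RAD54L and BRIP1 the reverse. The remaining 12 were called with neither, namely ATRIP, XRCC2, RAD51AP1, MUS81, SLX4, FANCE, FANCF, FANCG, FANCL, FANCI, MDC1 and DCLRE1C. How many of all genes tested share each of these patterns was not counted.

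**Figure D2:**
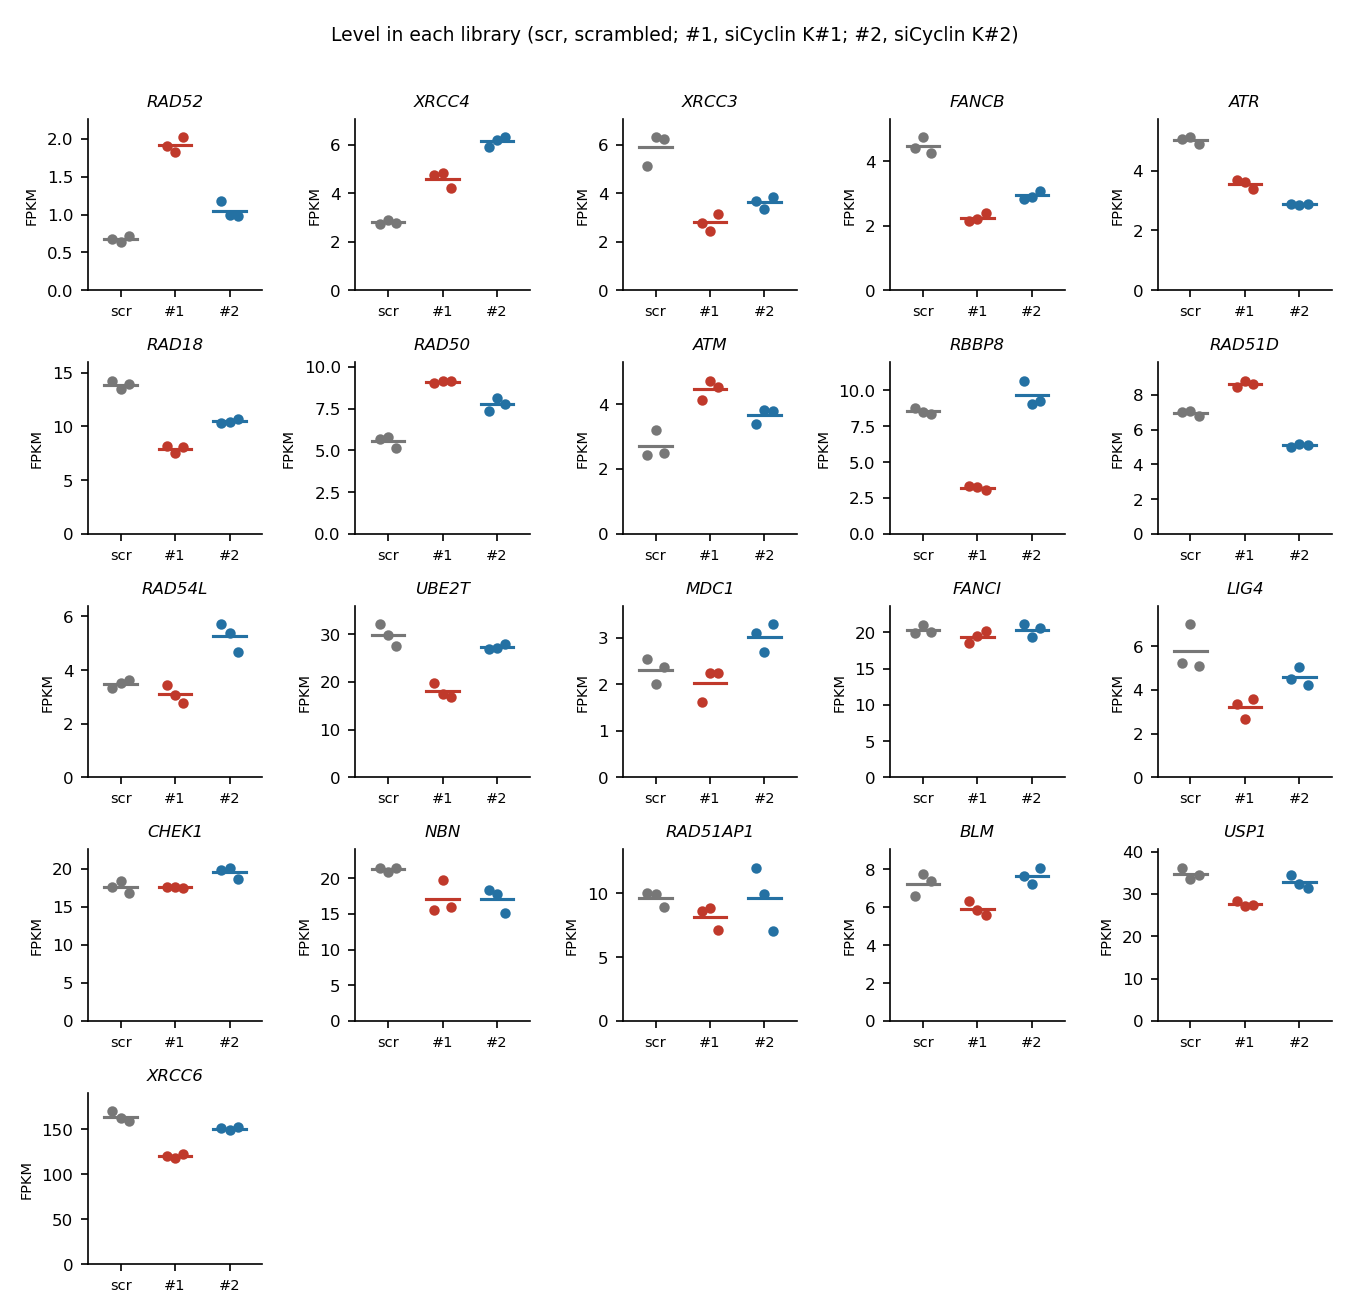
FPKM (y axis, from 0) in each of the 9 libraries for 21 repair genes, with 3 points per group (scr, scrambled; #1, siCyclin K#1; #2, siCyclin K#2) and a line at the group mean. The ATR points are lower in both siRNA groups than in scrambled cells, and the RBBP8 points are low under siCyclin K#1 alone.

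Among the checkpoint kinases, which sense damage and halt the cycle, ATR and ATM moved apart. ATR (chr3:142449235-142578826, minus strand, GRCh38), the kinase of single-stranded DNA and stalled forks, had an FPKM of 5.07, 5.11 and 4.90 in scrambled cells, 3.69, 3.62 and 3.40 under siCyclin K#1 and 2.90, 2.86 and 2.89 under siCyclin K#2. The groups did not overlap, and siCyclin K#2 was the lowest. The log2 fold change was -0.48 ± 0.06 (SE, adjusted p = 0.000122) and -0.78 ± 0.06 (adjusted p = 1.14e-05), and siCyclin K#1 stood 0.30 above siCyclin K#2 (adjusted p = 0.00406). An exact permutation test of the 6 against the 3 libraries gave p = 0.0119, the smallest it can give. ATM (chr11:108222484-108369102, plus strand), the kinase of double-strand breaks, had 2.43, 3.19 and 2.49 in scrambled cells, 4.12, 4.72 and 4.54 under siCyclin K#1 and 3.40, 3.82 and 3.80 under siCyclin K#2. It rose by 0.71 and 0.44 (adjusted p = 0.000782 and 0.0146), with the siCyclin K libraries all above the scrambled ones. Its call under siCyclin K#2 was lost without scrambled replicate 1 or 3 (adjusted p = 0.0524 and 0.0526). CHEK2, the effector kinase downstream of ATM, rose by 0.47 and 0.54 (adjusted p = 0.000289 and 0.000205). CHEK1, the effector of ATR and the most abundant of these checkpoint kinases per length, had 17.6, 18.3 and 16.8 in scrambled cells, 17.5, 17.6 and 17.4 under siCyclin K#1 and 19.8, 20.1 and 18.6 under siCyclin K#2. Its fold change of 0.15 under siCyclin K#2 (adjusted p = 0.0326) was no longer called under median-ratio scaling (adjusted p = 0.115) or without any 1 of 4 single libraries (scrambled replicates 1 and 3, siCyclin K#2 replicates 1 and 2; 0.0727 to 0.106). ATRIP, the partner of ATR, shares its row with TREX1 and had -0.37 and -0.28, neither called.

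Of the 3 genes that hold or open break ends, RBBP8 had the largest difference between the siRNAs of any member, RAD50 was higher under siCyclin K#1 than under siCyclin K#2, and NBN was not called in that test. RBBP8 (chr18:22798261-23026488, plus strand) encodes CtIP, which starts the resection of ends. Its FPKM was 8.78, 8.46 and 8.34 in scrambled cells, 3.33, 3.26 and 3.03 under siCyclin K#1 and 10.7, 9.05 and 9.25 under siCyclin K#2. The siCyclin K#1 libraries were far below both other groups, which lay near each other. The log2 fold change was -1.38 ± 0.07 under siCyclin K#1 (adjusted p = 8.87e-07) and 0.17 ± 0.07 under siCyclin K#2 (adjusted p = 0.0962), and the difference of -1.56 ± 0.07 was called (adjusted p = 1.70e-06). RAD50 (chr5:132556019-132646344, plus strand), the zinc-hook ATPase that tethers ends, went the other way, at 5.70, 5.81 and 5.12 in scrambled cells, 9.07, 9.17 and 9.14 under siCyclin K#1 and 7.37, 8.12 and 7.77 under siCyclin K#2. It rose by 0.71 and 0.48 (adjusted p = 1.75e-05 and 0.000317). The RAD50 call between the siRNAs (0.23, adjusted p = 0.0188) was lost after median-ratio scaling (0.078) and without siCyclin K#1 replicate 2 or 3 or siCyclin K#2 replicate 1 or 3 (0.0501 to 0.0637). Of its exon length 79.7% is also annotated as exon of AC116366.3 on the same strand, so these reads cannot be told apart. NBN, which recruits ATM to ends, had 21.4, 20.9 and 21.4 in scrambled cells, 15.5, 19.7 and 16.0 under siCyclin K#1 and 18.4, 17.9 and 15.2 under siCyclin K#2. Its fall of 0.32 and 0.31 (adjusted p = 0.027 and 0.037) was not called without any 1 of the scrambled libraries (0.0571 to 0.0909), siCyclin K#1 replicate 1 or 3 (0.0906 and 0.0871) or siCyclin K#2 replicate 2 or 3 (0.0567 and 0.113), each for the comparison that uses them.

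The recombination mediators, which load and steady the recombinase filament, showed 4 higher and 5 lower of 12 under siCyclin K#1, and 2 higher and 3 lower under siCyclin K#2. Of all genes tested, 26.8% and 18.1% were called under siCyclin K#1, and 19.8% and 15.2% under siCyclin K#2. Among the genes averaging an FPKM of 1 or more, fitted alone, these shares were 37.8% and 28.9%, and 32.9% and 24.3%. RAD52, an annealing protein with a mediator role, had the largest rise of the mediators under siCyclin K#1. Its FPKM was 0.672, 0.642 and 0.724 in scrambled cells, 1.90, 1.83 and 2.02 under siCyclin K#1 and 1.18, 0.999 and 0.975 under siCyclin K#2, on a row shared with AC004803.1 (chr12:912077-990053, minus strand). The 3 groups were separate, with siCyclin K#1 the highest, and the log2 fold changes were 1.37 ± 0.11 and 0.56 ± 0.11 (adjusted p = 1.14e-05 and 0.00368). XRCC3, a paralog of the recombinase, fell most, from 5.14, 6.31 and 6.22 FPKM to 2.78, 2.47 and 3.15 under siCyclin K#1 and 3.69, 3.36 and 3.83 under siCyclin K#2. The changes were -1.05 ± 0.11 and -0.68 ± 0.11 (adjusted p = 7.00e-05 and 0.00141). KLC1 covers 76.7% of the XRCC3 exon length on the opposite strand, and its own change was 0.23 and 0.21. The strand setting of the counting is not given in the sources used here, so reads of the overlap cannot be told apart.

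The other recombinase paralogs did not move as 1 set. RAD51C fell by 0.56 and 0.28 (adjusted p = 0.000333 and 0.0184), though the second call was lost without scrambled replicate 3 (0.0659) or siCyclin K#2 replicate 2 (0.0552). RAD51D, on a row joined with RFFL and AC004223.3, had 7.01, 7.07 and 6.75 in scrambled cells, 8.46, 8.81 and 8.64 under siCyclin K#1 and 5.004, 5.15 and 5.11 under siCyclin K#2. The siCyclin K#1 libraries were above scrambled and the siCyclin K#2 libraries below, with no overlap. Its changes were 0.31 ± 0.04 and -0.44 ± 0.04 (adjusted p = 0.000417 and 7.42e-05), and the difference was 0.75 ± 0.04 (adjusted p = 5.85e-06). RAD51B rose by 0.83 under siCyclin K#1 (adjusted p = 0.00184) at a low level, and XRCC2 was called with neither siRNA.

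Among the partners of the filament, RAD54L, a motor that helps the strands pair, had 3.35, 3.50 and 3.64 in scrambled cells, 3.45, 3.08 and 2.78 under siCyclin K#1 and 5.71, 5.39 and 4.67 under siCyclin K#2. Only the siCyclin K#2 libraries stood apart, by 0.57 ± 0.10 over scrambled (adjusted p = 0.00203) and 0.74 over siCyclin K#1 (adjusted p = 0.00061). BRCA2, which delivers the recombinase, fell by 0.37 under siCyclin K#1 (adjusted p = 0.0203, 0.0637 without scrambled replicate 2 and 0.0655 without siCyclin K#1 replicate 2). Its fold change under siCyclin K#2 was 0.19 (adjusted p = 0.21). PALB2, its partner, rose by 0.43 under siCyclin K#1 (adjusted p = 0.00276). It had 0.22 under siCyclin K#2 (adjusted p = 0.0696), and the difference between the siRNAs was not called (adjusted p = 0.107). RAD51AP1, the most abundant of these genes per length, had 10.1, 9.96 and 8.93 in scrambled cells, 8.59, 8.86 and 7.11 under siCyclin K#1 and 12.0, 9.97 and 7.07 under siCyclin K#2, and the spread within siCyclin K#2 exceeded any difference between groups. BARD1 and RAD54B had -0.27 and -0.34 under siCyclin K#1 (adjusted p = 0.037 and 0.0155). Under siCyclin K#2 they had -0.22 and -0.25, not called (adjusted p = 0.089 and 0.069). The BARD1 call was lost without any 1 of 5 single libraries (scrambled replicates 2 and 3, siCyclin K#1 replicates 1 and 3, siCyclin K#2 replicate 1; 0.0515 to 0.122), and that of RAD54B, which shares a row with FSBP, without siCyclin K#1 replicate 3 (0.0531).

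Of the 7 helicases and nucleases that unwind or cut joined molecules, 1 was higher and 3 lower under siCyclin K#1, and 2 were higher and 1 lower under siCyclin K#2. The shares of all genes tested were 26.8% and 18.1% under siCyclin K#1, and 19.8% and 15.2% under siCyclin K#2. For the genes averaging an FPKM of 1 or more, fitted alone, they were 37.8% and 28.9%, and 32.9% and 24.3%. WRN, a helicase of the RecQ family, rose by 0.43 and 0.27 (adjusted p = 0.000277 and 0.00565). BLM, its relative and the most abundant of the group per length, had 6.58, 7.74 and 7.37 in scrambled cells, 6.31, 5.88 and 5.58 under siCyclin K#1 and 7.67, 7.25 and 8.09 under siCyclin K#2. It fell by 0.28 under siCyclin K#1 (adjusted p = 0.0157), a call lost without scrambled replicate 2 or siCyclin K#1 replicate 3 (0.0566 and 0.0562), and at its limit without scrambled replicate 3, and had 0.09 under siCyclin K#2. RMI1, a BLM partner, fell by 0.58 and 0.51 (adjusted p = 0.000926 and 0.00273). EME1, a nuclease subunit, fell by 0.39 under siCyclin K#1, whereas its catalytic partner MUS81 and the scaffold SLX4 had 0.01 and 0.14, not called. Under siCyclin K#2, EME1 had -0.25, not called (adjusted p = 0.0658). BRIP1, a helicase bound to the repair machinery, had -0.07 under siCyclin K#1 and rose by 0.21 under siCyclin K#2 (adjusted p = 0.0102, 0.0682 after quantile normalization).

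Of the 12 genes of the Fanconi core and its ubiquitin step, none was called higher against scrambled cells. Further members that are also counted as Fanconi genes are described above with their partners. Of these, PALB2 and BRIP1 were each called higher under 1 siRNA, BRCA2 lower under siCyclin K#1 and RAD51C lower with each siRNA. SLX4 and XRCC2 were called with neither. Of the 12, 7 were lower under siCyclin K#1 and 2 under siCyclin K#2, and 6 were lower and 1 higher under siCyclin K#1 than under siCyclin K#2. Of all genes tested, 18.1%, 15.2% and 12.3% were called lower in that order, and 17.1% higher in the last comparison. Among the genes averaging an FPKM of 1 or more, fitted alone, these shares were 28.9%, 24.3%, 22.7% and 26.1%. FANCB (chrX:14835961-14873069, minus strand), a subunit of the ubiquitin ligase core, had 4.42, 4.75 and 4.25 in scrambled cells, 2.16, 2.20 and 2.40 under siCyclin K#1 and 2.84, 2.90 and 3.08 under siCyclin K#2. All siCyclin K libraries were below scrambled, and it fell by 0.96 and 0.59 (adjusted p = 8.76e-06 and 0.000283). FANCM, the anchor of the core on DNA, fell by 0.42 and 0.33 (adjusted p = 0.00152 and 0.00774). UBE2T, the conjugating enzyme that supplies the ubiquitin, had 32.1, 29.7 and 27.6 in scrambled cells, 19.7, 17.5 and 16.9 under siCyclin K#1 and 26.8, 27.0 and 27.9 under siCyclin K#2. The siCyclin K#1 libraries alone were low, by 0.72 (adjusted p = 3.97e-05), with -0.60 between the siRNAs (adjusted p = 0.000293).

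The substrates of that ligase differed from each other. FANCD2 had 7.46 ± 0.456 FPKM in scrambled cells, 5.04 ± 0.370 under siCyclin K#1 and 7.43 ± 0.123 under siCyclin K#2 (SD, n = 3), a change of -0.56 with the first (adjusted p = 0.000145) and -0.00 with the second (adjusted p = 0.974). FANCI, its partner, had 19.9, 21.0 and 20.1 in scrambled cells, 18.5, 19.5 and 20.2 under siCyclin K#1 and 21.1, 19.4 and 20.6 under siCyclin K#2. The 3 groups overlapped, and the 95% intervals of its log2 fold change were -0.16 to 0.03 and -0.10 to 0.09. USP1, which removes the ubiquitin and is the most abundant gene of the group per length, had 36.2, 33.5 and 34.5 in scrambled cells, 28.3, 27.2 and 27.4 under siCyclin K#1 and 34.4, 32.5 and 31.4 under siCyclin K#2. It fell by 0.33 under siCyclin K#1 (adjusted p = 0.000328), and its fold change under siCyclin K#2 was -0.09 (adjusted p = 0.182). FANCA and FANCC fell by 0.36 and 0.37 under siCyclin K#1, and FANCE, FANCF, FANCG and FANCL were not called against scrambled cells. ZNF276, whose exons cover 23.6% of the FANCA exon length on the opposite strand, had -0.98 under siCyclin K#1.

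The chromatin signalling genes, which recruit repair factors around a break, split as well. TP53BP1, the 53BP1 protein that shields ends from resection, rose by 0.68 and 0.34 (adjusted p = 8.62e-05 and 0.00691). TUBGCP4, whose exons cover 28.7% of the TP53BP1 exon length on the opposite strand, had -0.61 and -0.39. RNF8, the first ubiquitin ligase at the break, rose by 0.36 and 0.44 without rescaling, while RNF168, the next in order, fell by 0.63 and 0.30. The RNF168 call under siCyclin K#2 (adjusted p = 0.0445) was lost in 7 of 9 fits without 1 library, at up to 0.141, the exceptions being scrambled replicate 2 and siCyclin K#2 replicate 1. RNF8 shares its row with RN7SL273P. Its call under siCyclin K#1 was lost after median-ratio scaling (adjusted p = 0.14) and quantile normalization (0.287), and that under siCyclin K#2 after quantile normalization (0.0529). Both were lost without scrambled replicate 2 (0.108 and 0.0584), the first also without scrambled replicate 1 or siCyclin K#1 replicate 1 or 3 (0.0558 to 0.115), and the second without siCyclin K#2 replicate 1 or 3 (0.0601 and 0.0639). RAD18 (chr3:8775402-8963773, minus strand), a ligase of damage bypass and the most abundant gene of the group per length, had 14.2, 13.5 and 13.9 in scrambled cells, 8.18, 7.51 and 8.05 under siCyclin K#1 and 10.3, 10.4 and 10.7 under siCyclin K#2. Its groups were separate, and it fell by 0.80 and 0.41 (adjusted p = 1.74e-06 and 0.000177). MDC1, the scaffold on phosphorylated H2AX, had 2.53, 1.997 and 2.37 in scrambled cells, 1.61, 2.24 and 2.24 under siCyclin K#1 and 3.10, 2.69 and 3.29 under siCyclin K#2. It was called with neither siRNA, and its difference of -0.56 between them (adjusted p = 0.0207) was lost without siCyclin K#2 replicate 1 or 3 (0.0616 and 0.0718).

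Of the 7 end joining genes tested, 5 were called lower under siCyclin K#1 and 1, XRCC4, higher. Under siCyclin K#2, 2 were lower and 1 higher. Of all genes tested, 18.1% were lower and 26.8% higher under siCyclin K#1, and 15.2% and 19.8% under siCyclin K#2. Among the genes averaging an FPKM of 1 or more, fitted alone, these shares were 28.9% and 37.8%, and 24.3% and 32.9%. XRCC6, the Ku70 subunit that caps ends and the most abundant member of all per length, had 170.1, 163 and 159.8 in scrambled cells, 121, 118 and 122 under siCyclin K#1 and 152, 149 and 153 under siCyclin K#2. It fell by 0.45 under siCyclin K#1 (adjusted p = 4.21e-06) and by 0.12 under siCyclin K#2 (adjusted p = 0.0126, 0.145 after quantile normalization). XRCC5, the Ku80 subunit, fell by 0.34 under siCyclin K#1 (adjusted p = 1.25e-05) and had -0.05 under siCyclin K#2. PRKDC, the kinase recruited by Ku, had -0.08 under siCyclin K#1, at an adjusted p of 0.0499 that passed 0.05 in none of the 9 fits without 1 library, and fell by 0.24 under siCyclin K#2 (adjusted p = 0.000244).

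XRCC4 (chr5:83077498-83353787, plus strand), the scaffold of the ligase, had 2.72, 2.91 and 2.80 in scrambled cells, 4.77, 4.83 and 4.21 under siCyclin K#1 and 5.90, 6.20 and 6.31 under siCyclin K#2. The groups were separate, with siCyclin K#2 the highest, and it rose by 0.69 and 1.10 (adjusted p = 4.55e-05 and 5.18e-06). LIG4, the ligase that XRCC4 stabilizes, had 5.24, 6.999 and 5.09 in scrambled cells, 3.36, 2.68 and 3.56 under siCyclin K#1 and 4.50, 5.04 and 4.24 under siCyclin K#2. It fell by 0.83 under siCyclin K#1 (adjusted p = 0.00157), and its fold change under siCyclin K#2 was -0.31 (adjusted p = 0.137). POLQ, the polymerase of the alternative route of end joining, fell by 0.52 under siCyclin K#1 (adjusted p = 0.000172). DCLRE1C, the nuclease Artemis, had -0.17 and -0.39, neither called.

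The direct test between the siRNAs called 31 of 51 members and 29.4% of all genes tested. Among the genes averaging an FPKM of 1 or more, fitted alone, it called 31 of 50 members and 48.7% of genes. The difference in this test is taken between siCyclin K libraries alone, but its spread is estimated over all 3 groups. The median difference, siCyclin K#1 minus siCyclin K#2, was -0.15 over the members and 0.08 over all genes tested. Genes of the cell cycle differed in the same comparison. Of 30 S-phase genes, 0 were higher and 19 lower under siCyclin K#1 than under siCyclin K#2, and of 24 mitosis genes, 0 and 19. All genes tested gave 17.1% and 12.3%, and those averaging an FPKM of 1 or more 26.1% and 22.7%. E2F1, a transcription factor of S-phase entry, differed by -0.75 and CCNE2, a cyclin of the same step, by -1.59 (adjusted p = 5.93e-05 and 3.51e-05), and the mitotic CDC20 by -0.83 (adjusted p = 7.90e-07). Against scrambled cells E2F1 was called higher with both siRNAs (0.25 and 1.00), and CCNE2 (-2.01 and -0.42) and CDC20 (-1.60 and -0.77) lower. There, 6 S-phase genes were higher and 16 lower under siCyclin K#1, and 15 and 6 under siCyclin K#2. The mitosis genes gave 3 and 13, and 13 and 4. All genes tested gave 26.8% and 18.1%, and 19.8% and 15.2%. Those averaging an FPKM of 1 or more gave 37.8% and 28.9%, and 32.9% and 24.3%. The summed FPKM of the mitosis list was 1081, 1098 and 1089 in the scrambled libraries, 893, 940.4 and 915 under siCyclin K#1 and 1220.0, 1208 and 1223 under siCyclin K#2. That of the S-phase list, in which PCNA is the most abundant gene, was 923, 899 and 932, 955, 915 and 934 and 1089, 1051 and 1019. COL1A1 moved too, with 2.03 ± 0.218, 14.0 ± 0.572 and 3.19 ± 0.0999 FPKM (SD, n = 3). The part of these genes in the repair gene differences was not tested.

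Repair genes outside the list gave a mixed background. Of 58 tested genes of related break repair functions, 12 were higher and 24 lower under siCyclin K#1, and 17 and 18 under siCyclin K#2, at medians of -0.19 and -0.14. SMC1A, a cohesin subunit, rose by 0.99 and 1.07, and UIMC1, which binds ubiquitin at breaks, by 0.89 and 1.09. RMI2, the partner of RMI1, had -1.61 and -0.38, both called lower. In the direct test 3 of the 58 were higher and 13 lower under siCyclin K#1, beside 17.1% and 12.3% of all genes tested. Of 32 excision and mismatch repair genes, 11 were higher and 9 lower under siCyclin K#1, and 9 and 10 under siCyclin K#2. Beside both lists, all genes tested gave 26.8% and 18.1% under siCyclin K#1, and 19.8% and 15.2% under siCyclin K#2. Those averaging an FPKM of 1 or more gave 37.8% and 28.9%, and 32.9% and 24.3%. XPC, which recognizes bulky lesions, rose by 1.92 and 1.37, and NEIL1, a glycosylase, had -0.92 and -1.03 (both genes, with each siRNA, at an adjusted p under 0.05).

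**Figure D3:**
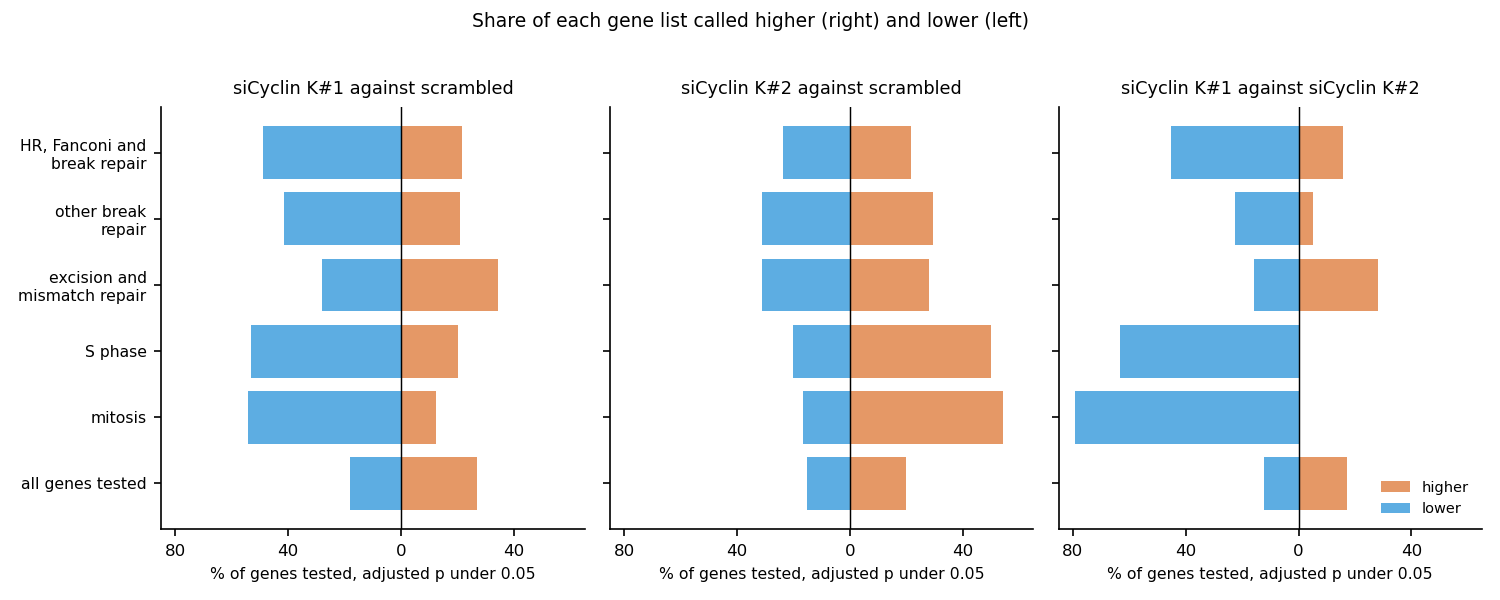
Percent of genes tested (x axis) called higher (orange, to the right) or lower (blue, to the left) at an adjusted p under 0.05, for the repair genes described here, 4 other lists and all 21048 genes. In the comparison of siCyclin K#1 with siCyclin K#2, 23 of 51 repair genes, 19 of 30 S-phase genes and 19 of 24 mitosis genes were lower.

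CDK12 is known for long genes, so the genomic span of the members was set beside their fold changes. The members spanned a median of 57.1 kb. The 13 of at least 100 kb had a median log2 fold change of -0.08 under siCyclin K#1 and 0.18 under siCyclin K#2, and the 14 under 30 kb had -0.30 and -0.15. Spearman's rho over the 51 members was 0.165 and 0.271, as a description, since the genes share libraries. Over 9216 protein-coding genes averaging an FPKM of 1 or more it was 0.182 and 0.212, with medians of 0.01, 0.09 and 0.32 from short to long under siCyclin K#1. ATR, of 129.6 kb, fell and ATM, of 146.6 kb, rose.

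**Figure D4:**
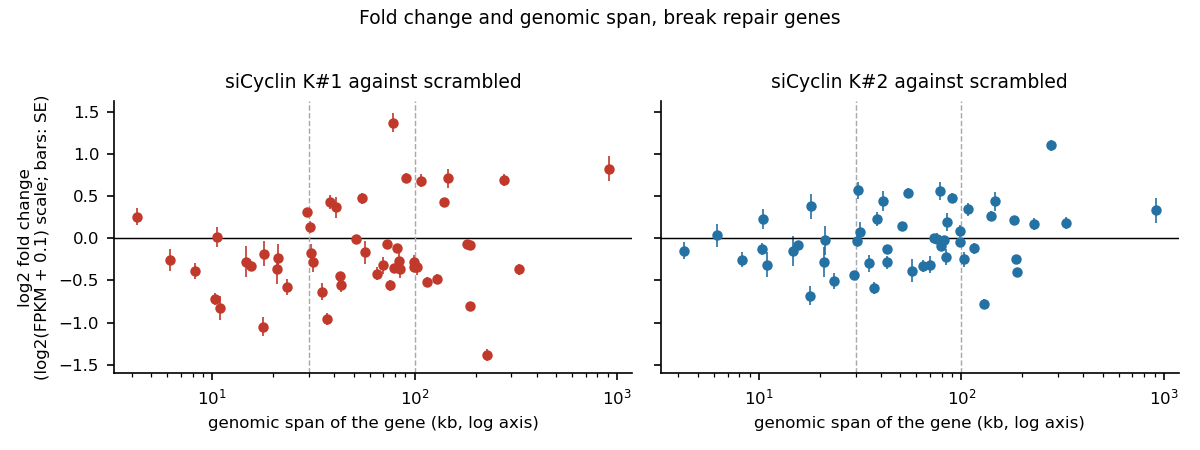
Log2 fold change against scrambled cells (y axis, with SE bars) by genomic span of the gene in kb (log x axis) for 51 repair genes, under siCyclin K#1 on the left and siCyclin K#2 on the right. Dashed lines mark 30 and 100 kb, and the points above 100 kb lie on both sides of 0 in each panel.

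Promoters were read because repair genes and S-phase genes differed between the siRNAs together, and E2F factors drive S-phase genes. RefSeq promoters (GRCh38.p14, 250 bases before to 50 after the start) matched 45 of 51 members. The E2F letters searched were TTTCGCGC, TTTGGCGC, TTTCCCGC and TTTGCCGC on both strands. They stood in 5 of the 45 member promoters (11.1%), in 5.1% of 10930 promoters of genes tested and in 3.33% of all 27305. Those of FANCA (chr16:89816598-89816897, minus strand), FANCC (chr9:95317660-95317959, minus strand), FANCD2 (chr3:10026187-10026486, plus strand), XRCC2 (chr7:152676092-152676391, minus strand) and XRCC6 (chr22:41621045-41621344, plus strand) are shown, being all the member promoters with these letters. All 5 genes were lower under siCyclin K#1 than under siCyclin K#2. Capitals mark the E2F letters or their reverse complement.
FANCA: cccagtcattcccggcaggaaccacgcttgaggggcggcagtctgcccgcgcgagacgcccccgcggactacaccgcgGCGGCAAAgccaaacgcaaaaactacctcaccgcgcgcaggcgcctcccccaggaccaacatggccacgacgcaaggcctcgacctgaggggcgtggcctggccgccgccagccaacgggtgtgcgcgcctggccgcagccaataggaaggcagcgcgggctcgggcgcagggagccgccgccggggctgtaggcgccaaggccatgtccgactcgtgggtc
FANCC: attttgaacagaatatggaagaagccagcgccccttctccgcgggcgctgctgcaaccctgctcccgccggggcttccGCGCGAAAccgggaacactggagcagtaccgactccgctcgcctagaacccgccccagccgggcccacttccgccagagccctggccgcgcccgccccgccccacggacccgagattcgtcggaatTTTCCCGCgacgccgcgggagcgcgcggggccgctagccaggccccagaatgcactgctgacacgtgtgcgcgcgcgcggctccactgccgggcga
FANCD2: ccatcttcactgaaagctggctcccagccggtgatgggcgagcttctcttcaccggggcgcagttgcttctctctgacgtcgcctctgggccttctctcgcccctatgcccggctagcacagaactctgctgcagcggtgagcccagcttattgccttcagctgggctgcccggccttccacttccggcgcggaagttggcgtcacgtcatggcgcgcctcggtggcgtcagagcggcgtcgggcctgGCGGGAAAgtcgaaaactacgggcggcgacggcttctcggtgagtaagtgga
XRCC2: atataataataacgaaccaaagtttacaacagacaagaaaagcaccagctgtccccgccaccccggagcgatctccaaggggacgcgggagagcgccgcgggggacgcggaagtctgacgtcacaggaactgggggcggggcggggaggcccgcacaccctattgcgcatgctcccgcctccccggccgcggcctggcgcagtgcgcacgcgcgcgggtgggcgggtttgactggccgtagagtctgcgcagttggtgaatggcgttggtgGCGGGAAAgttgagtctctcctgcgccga
XRCC6: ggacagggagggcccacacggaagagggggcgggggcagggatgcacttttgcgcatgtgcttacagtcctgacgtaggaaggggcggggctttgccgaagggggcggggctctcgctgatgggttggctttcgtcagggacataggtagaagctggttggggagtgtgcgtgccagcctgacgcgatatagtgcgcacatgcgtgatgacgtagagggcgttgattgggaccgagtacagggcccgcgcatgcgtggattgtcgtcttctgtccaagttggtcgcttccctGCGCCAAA
Of the 40 member promoters without these letters, 17 belonged to genes lower in that comparison and 7 to genes higher. The median difference was -0.36 with the letters and -0.14 without. The XRCC2 call was lost in 8 of 9 fits without 1 library. Further motifs were counted. CCAAT stood in 51.1% of member promoters, 36.1% of those of genes tested and 35.7% of all, GCGCANGCG (NRF1) in 22.2%, 14.0% and 8.05%, and TTTGAA (the cell cycle homology region) in 13.3%, 9.99% and 15.4%. The 6 promoters with TTTGAA had a median difference of -0.48, 5 of them lower and 0 higher, and the 39 without it -0.15. With and without CCAAT the medians were -0.21 and -0.28, and with and without GCGCANGCG -0.24 and -0.22. For no motif was the direction of the other genes tested counted, so these counts of lower and higher members have no background. A match is a description and not a bound site, and a part of these motifs in the differences was not tested.

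The 3′ UTRs were searched for the seed match of each siRNA guide (bases 2 to 8), derived from the siRNA sequences in the methods. GTGATAA, the match of siCyclin K#1, stood in the longest annotated 3′ UTR of 5 of 51 members (9.8%), against 10.6% of 11406 genes tested. The 5 were ATR, ATM, CHEK1, FANCM and MDC1, and ATR and FANCM were the ones called lower under siCyclin K#1. Their sites are shown, 3′ UTR sequence from GENCODE 29, with the seed match in capitals.
ATR: tccacgcagtGTGATAAcgaatgatat
FANCM: ttgtactgttGTGATAAatagtaaagt
The 23 further members called lower under siCyclin K#1, RBBP8 and LIG4 among them, held no such match. Over all 11406 genes the median log2 fold change under siCyclin K#1 was -0.10 with a match and 0.16 without, and the median 3′ UTR was longer with one (3257.5 against 1191 bases). TACAGGT, the match of siCyclin K#2, stood in 7 members (13.7%) and 13.2% of genes. Of these 7, RAD51D was called lower under siCyclin K#2, and ATM, BRIP1 and TP53BP1 were called higher. Over all 11406 genes the median log2 fold change under siCyclin K#2 was 0.04 with a match and 0.06 without. These are descriptions, and no direct effect of a guide on a member was tested.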

How the data were processed

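Total RNA of 9 libraries was measured, 3 each of scrambled, siCyclin K#1 and siCyclin K#2, grouped by the sample labels. Values are FPKM as the authors deposited them, and the submitters' processing notes name StringTie 1.3.3b; the aligner, the annotation release and the strand setting are not given in the sources used here. Gene coordinates in the files are GRCh38. Loci without a reference gene (25125 of 56252 features) carry no position and were not used here, so the planned count of such loci inside members was not analysed.

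Rows of 1 gene were added up. The 21048 genes reaching an FPKM of 0.1 in 3 or more libraries entered limma 3.58.1 (R 4.3.3, lmFit, eBayes with trend) as log2(FPKM + 0.1), with Benjamini-Hochberg adjustment over all of them. Fold changes are on this log2(FPKM + 0.1) scale, which makes those of scarce genes too small. Both siRNAs were tested as 2 groups, and each siRNA, and the siRNAs against each other, in 1 fit of 3 groups. The fit was tested on simulated data first. Read totals were estimated from the steps between low FPKM values. With these totals 86.72% of nonzero values came out whole within 0.1 read, and 16 members were whole in every library. On these recovered reads limma-voom was run as an alternative; it covers 14802 genes, 16 of them members. Members ranged from 90 reads in the poorest library of RAD51B upward. The 95% intervals are the log2 fold change ± 1.96 SE of limma, whose spread is estimated over all 3 groups. With so few libraries this multiplier makes them somewhat too narrow. P-values measure the spread between these samples.

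The members, the other lists and the alternatives were chosen with earlier results of these data known. Per-library values are given for the 8 members with the largest change over both siRNAs and the 6 with the largest difference between them, among those called, for ATR, FANCI and LIG4, and for the most abundant member of each role. Of other lists at most 3 genes are named, by size of change. Of the members, 5 share a row with another gene, 12 have over 10% of their exon length under another gene's exons, and 6 (CHEK2, DCLRE1C, FANCD2, RAD51AP1, RBBP8 and XRCC6) have annotated pseudogenes, so that their values are uncertain where reads were shared.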

Additional observations from a re-analysis of the deposited data

Results flagged for a closer look

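The effects of the siRNAs differed in 31 repair genes by the direct test between them (limma, adjusted p under 0.05), which is what singled them out. That test called 29.4% of all genes tested, and 48.7% of those averaging an FPKM of 1 or more when these were fitted alone. The values are log2 differences, siCyclin K#1 minus siCyclin K#2. Lower under siCyclin K#1 were RBBP8 (-1.56), RAD54L (-0.74), UBE2T (-0.60), MDC1 (-0.56), BRCA2 (-0.56), FANCD2 (-0.55), FANCC (-0.55), LIG4 (-0.51), XRCC4 (-0.41), POLQ (-0.40), RAD18 (-0.40), FANCB (-0.37), BLM (-0.37), XRCC3 (-0.37), XRCC2 (-0.36), RNF168 (-0.34), XRCC6 (-0.33), XRCC5 (-0.29), BRIP1 (-0.29), RAD51C (-0.27), FANCA (-0.26), USP1 (-0.24) and CHEK1 (-0.15). Higher under siCyclin K#1 were PRKDC (0.16), RAD50 (0.23), ATR (0.30), TP53BP1 (0.34), FANCF (0.40), RAD51B (0.49), RAD51D (0.75) and RAD52 (0.81). Of these 31 calls, 20 were kept under all alternatives of the fit. Of the 9 fits that left out 1 library, the call was lost in 8 for XRCC2, in 7 for RAD51B, in 5 each for CHEK1, XRCC3, RNF168 and RAD51C, in 4 each for LIG4 and RAD50, and in 2 each for FANCF and MDC1. The PRKDC call was lost only under alternatives that kept all libraries. With 3 libraries per group, no single library was tested as an outlier.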

How the results depend on the processing

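No member changed direction among those called, under any alternative run. Of the calls, 11 of 20 with both siRNAs, 29 of 36 under siCyclin K#1, 15 of 23 under siCyclin K#2 and 20 of 31 between the siRNAs were kept under all alternatives of the fit, thresholds aside. With both siRNAs, 11 members were called at an adjusted p under 0.01 (17.2% of all genes), 32 in the 3-group fit (43.1% of all genes), which keeps the difference between the siRNAs out of the spread, and 11 to 22 when 1 library was left out (20.2% to 28.8% of all genes). Under siCyclin K#2, 15 were called at an adjusted p under 0.01 (24.7% of all genes). At a fold change over 3 and p under 0.01 there were 0 in each of the 4 comparisons. Limma-voom on recovered reads, which covers 16 members, called 9, 15, 6 and 11 (both, siCyclin K#1, siCyclin K#2, between; 23.9%, 38.3%, 29.2% and 24.7% of 14802 genes), where limma on FPKM called 6, 15, 6 and 11 of the same 16. The median under siCyclin K#1 was -0.39 after median-ratio scaling. Under siCyclin K#2 it was -0.08 after median-ratio scaling, -0.08 after quantile normalization, and -0.06 to -0.01 when 1 library was left out. With limma-voom it was -0.11, but over 16 members and not 51, so that value is not of the same set. The cause of these shifts was not tested. With a replicate block the counts were 17, 34, 24 and 28 in the same order (22.7%, 43.1%, 33% and 27% of all genes), but the deviations of libraries sharing a number were uncorrelated (mean r = -0.0058 over 9 pairs), so the numbers are not taken as a pairing. Depth limits the scarcest members, such as RAD51B, most.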
